A study of Mus musculus with 6 samples.

Results

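Adra2c encodes the alpha-2C adrenergic receptor, and it was followed here through 6 pools of embryonic mouse lenses as 1 of the 13024 genes in the deposited count table. It was chosen by its counts in these pools, which were lower in Gata3 CKO than in control lenses, and the study also lists it among its changed genes, so its difference between the groups and its relation to fibre genes are given as a description, with no test. Each library was made by polyA selection from a pool of 10 lenses of 5 embryos at E14.5, on a mixed C57BL/6 and FVB background, with 3 pools per group. The CKO embryos were Gata3 f/f and carried the Pax6-Cre transgene, which is driven by an ocular epithelial enhancer and the P0 promoter of mouse Pax6 and acts in the precursors of lens and cornea. The control pools are called wild type in the sample labels, Gata3 f/f in the Methods of the study and Gata3 f/wt without Cre in its Results, and they are named control here. Only the CKO embryos carried Cre, so an effect of Cre cannot be told apart from that of the deletion.

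Gata3 itself was counted higher in the libraries labelled CKO than in the control libraries, at 53.2 ± 6.29 against 16.2 ± 9.71 CPM (counts scaled to equal library size, mean ± SD, n = 3). The deposited value is 1 count per gene and cannot show the loss of the floxed exon. The study reports that loss in the mutant lenses by RNA-Seq. It also reports much lower Gata3 by qPCR with primers that span the floxed exon and the next. Neither was analysed here. The count per gene thus does not check the label, and every direction below is that of the libraries labelled CKO.

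Noradrenaline and adrenaline act on alpha-1, alpha-2 and beta adrenergic receptors, which pass the signal to different classes of G protein. The alpha-2C receptor couples to Gi and Go proteins, which lower cyclic AMP by inhibiting adenylyl cyclases and whose beta-gamma subunits open inwardly rectifying potassium channels and close voltage-gated calcium channels. It is best known from neurons and adrenal chromaffin cells, where it holds back the release of its own ligands. In the lens, cells of the anterior epithelium divide and those at the equator leave the cell cycle and elongate into fibre cells, which fill up with crystallins and build a skeleton of beaded filaments.

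Adra2c is a gene of a single exon on the forward strand of chromosome 5 (GENCODE 35278319–35281763, mm10), 3445 bases long, of which the coding part spans 35279886 to 35281259. Its 458 codons stand between 1567 bases of 5' and 504 bases of 3' untranslated sequence. No other annotated gene overlaps it, so its count does not depend on how overlapping genes were handled. Its sequence was compared with that of the other adrenergic receptors to see whether reads could pass between family members. None of the 3396 words of 50 bases in its transcript (0%) was found in any of 141766 other GENCODE transcripts. The longest runs in common were with Adra2a, at 26 bases (chr5:35280357-35280382), and with Adra2b, at 23 bases (chr5:35280297-35280319), both in the coding part, and runs of 17 bases were in common with Adra1d and with Adrb3. The 4 stretches are shown as they read in Adra2c, 5′ to 3′ on the forward strand, with the letters shared with the other receptor in capitals.
Adra2a: taGAGTACAACCTGAAGCGCACGCCGCGcc
Adra2b: tcgTCCATCGTGCACCTGTGTGCCATtag
Adra1d: ttcgtaCTGTGCTGGTTCCCCTTcttctt
Adrb3: gttcgcTCAACCCGGTCATCTACactgtc
The shared runs were thus shorter than the words tested, and the counts below are read as those of Adra2c itself.

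The promoter was searched on both strands over the 250 bases before the start that RefSeq gives, which lies 247 bases downstream of the start in GENCODE. By the GENCODE model nearly all of this window in Adra2c, with the E-box given below, is thus transcribed 5' untranslated sequence. A GATA motif, searched for as AGATAA and in the related spellings AGATAG together with TGATAA as well as the form TGATAG, was not found there in Adra2c or in Adra2a, while 26.5% of 32851 mouse promoters of this length held one. The MAF half-site TGCTGA (16.1% of promoters) and the heat shock pair GAANNTTC (6.69%) were not found in either gene. The cyclic AMP half-site TGACG was not found in Adra2c and was found once in Adra2a, at -69 bases, against 17.8% of all promoters. Both genes held an E-box CACGTG, at -152 bases in Adra2c and at -80 bases in Adra2a, a motif that 6.02% of promoters held. The E-box of Adra2c is shown in capitals within a window of 28 bases on the forward strand (chr5:35278403-35278430), since it was the only motif searched that this window contained.
Adra2c: aactcaggccaCACGTGacagaacctct
A match to these letters describes the sequence and is not evidence of binding.

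In control replicates 1, 2 and 3 Adra2c had 177, 373 and 161 counts. In CKO replicates 1, 2 and 3 it had 45, 43 and 65 counts. Library totals lay between 15157230 and 18811104 counts in the 6 pools, so the totals do not set this order. Scaled to equal library size by edgeR's TMM factors, these were 11.2, 26.3 and 8.99 CPM in the control pools and 2.92, 2.19 and 3.38 CPM in the CKO pools. Every CKO pool was below every control pool, and the gap between the lowest control and the highest CKO pool was 1.40 on the log2 scale. The group means were 15.5 ± 9.41 CPM in control and 2.83 ± 0.603 CPM in CKO lenses (SD, n = 3), a ratio of 5.48. The fitted log2 fold change of CKO against control was -2.45 with a standard error of 0.457, and it was -1.83 without control replicate 2, the pool with the highest level.

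**Figure D1:**
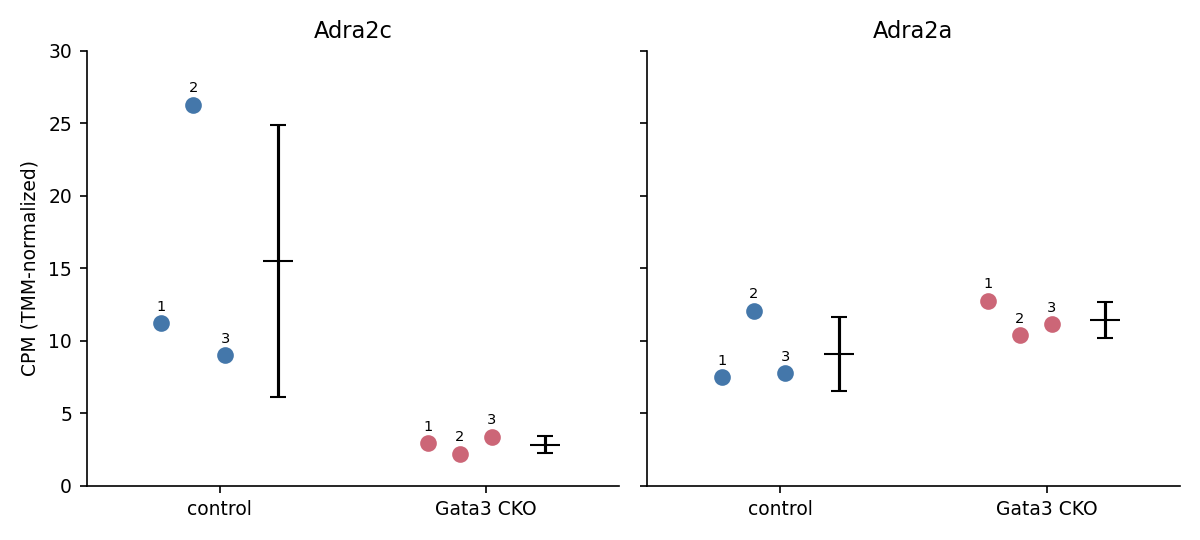
Level of Adra2c (left) and Adra2a (right) in each pool, in TMM-normalized CPM on a shared linear axis; points are pools with their replicate number, and bars give the mean ± SD of 3 pools. The CKO pools lie between 2.19 and 3.38 CPM for Adra2c, below every control pool, while for Adra2a the groups overlap.

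The order of the pools was control replicate 2, 1 and 3, followed by CKO replicate 3, 1 and 2. As shares of the library total, with exact Clopper-Pearson 95% intervals that cover counting error only, Adra2c took 22.8 (20.6 to 25.3) CPM, here without TMM factors, in control replicate 2. It took 11.2 (9.60 to 13) in control replicate 1 and 9.28 (7.90 to 10.8) in control replicate 3, whose intervals overlap. In the CKO pools it took 2.97 (2.17 to 3.97), 2.29 (1.65 to 3.08) and 3.55 (2.74 to 4.53) in replicates 1, 2 and 3, again with overlapping intervals. Since Adra2c was chosen by these counts, the intervals describe the precision of each level and are no test of the steps between pools.

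Adra2c was a gene of low level among those in the table. Per kilobase of exon it stood at 3.26, 7.63 and 2.61 CPM in the control pools and at 0.847, 0.635 and 0.982 CPM in the CKO pools. Among 12802 tested genes with an exon length, this placed it at percentiles 25.3, 50.9 and 21.6 in the control pools and 5.93, 2.40 and 7.19 in the CKO pools. The authors kept genes whose mean FPKM was above 1 in either group. In CPM per kilobase, a different scale, the mean of Adra2c was 4.50 ± 2.73 in control and 0.821 ± 0.175 in CKO lenses. If FPKM ran likewise, Adra2c entered the table through the control group, where it was high.

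Only 2 of the 9 adrenergic receptor genes were in the table, both of the alpha-2 class, and the other 7 were not analysed here. Adra2a, the alpha-2A receptor, lies on chromosome 19 (54044151–54048982, forward strand). It had 7.48, 12 and 7.76 CPM in control replicates 1, 2 and 3 and 12.8, 10.4 and 11.1 CPM in CKO replicates 1, 2 and 3. Control replicate 2 was again the highest control and overlapped the CKO pools, and the means were 9.10 ± 2.56 and 11.4 ± 1.23 CPM. The log2 fold change was 0.33 (SE 0.224, unadjusted p = 0.184, edgeR's quasi-likelihood test), and without any 1 library it ran from 0.22 to 0.59. In the same test it was 0.59 without control replicate 2 (unadjusted p = 0.00874, adjusted p = 0.488). With library totals only it was 0.45 (unadjusted p = 0.0456, adjusted p = 0.898). Per kilobase of exon, Adra2c was the higher of the pair in control lenses, at 4.50 ± 2.73 against 1.88 ± 0.530 CPM, and the lower in CKO lenses, at 0.821 ± 0.175 against 2.36 ± 0.254 CPM. In single pools the log2 CPM of Adra2c minus that of Adra2a was 0.58, 1.12 and 0.21 in the control pools and -2.11, -2.22 and -1.70 in the CKO pools. This log2 ratio was 0.64 ± 0.46 in control and -2.01 ± 0.27 in CKO lenses, without overlap. Since Adra2c was chosen by its counts, the separation and the change in which receptor was higher follow from that choice and are no finding.

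Across all genes, edgeR's quasi-likelihood test with Benjamini-Hochberg adjustment called none of 12879 genes at 0.05 (0%). Limma voom also called 0, and the Wald test of DESeq2 called 85 of 12866 (0.661%). The study drew its own list with DESeq2 at the same adjusted threshold. It also reports qPCR checks of some of those genes on independent lens pools. At an unadjusted p under 0.05, 289 genes were lower (2.24%) and 168 higher (1.3%) in CKO lenses. The rest of adrenergic and cyclic AMP signalling was described on 12 lists from receptors to channels, of whose 150 genes besides Adra2c 92 were in the table and 91 were tested. Of these, 35 were lower and 56 higher in CKO lenses, against 6364 lower and 6515 higher over all genes. Their median log2 fold change was 0.05, against 0.00 over all genes. Within 0.5 of zero lay 86 of the 91, a share much like the 12210 of 12879 over all genes. An unadjusted p under 0.05 was found for 3 lower and 3 higher of the 91 genes, 3.30% each. In 4 genes every CKO pool was below every control pool (4.4%, with 4.69% over all genes), and in 6 every CKO pool was above (6.59%, with 3.67%). None of the 91 passed after adjustment over all genes in edgeR or voom, and 2 did in DESeq2, Kcnj6 (adjusted p = 0.0149) and Pde2a (adjusted p = 6.18e-05). Kcnj6 met the filter of 10 counts in 3 libraries only through the control pools, where it was high.

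**Figure D2:**
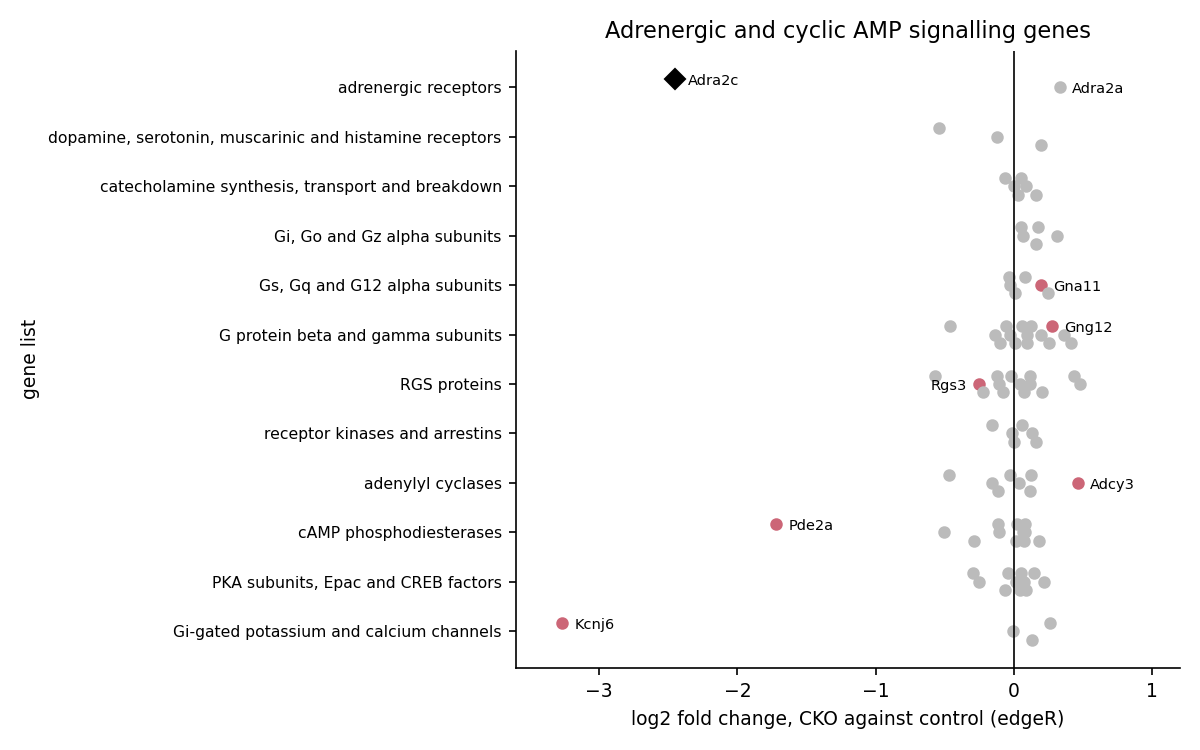
Log2 fold change of CKO against control for each tested gene of the 12 signalling lists, 1 row per list; the black diamond is Adra2c, red points have an unadjusted p under 0.05 in edgeR and grey points do not. Adra2c at -2.45 lies between Kcnj6 at -3.27 and Pde2a at -1.72. Of the other 91 genes 86 lie within 0.5 of zero, as do 12210 of all 12879 genes tested.

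Among receptors for other amines, 3 of 27 were in the table, and none had an unadjusted p under 0.05. Drd4, the D4 dopamine receptor and like Adra2c coupled to Gi, had 8.87, 19.2 and 6.03 CPM in the control pools and 7.72, 7.93 and 7.70 CPM in the CKO pools. Control replicate 2 stood highest here too, but the groups overlapped, with a log2 fold change of -0.54 (SE 0.411, unadjusted p = 0.233). The serotonin receptor Htr1b and the muscarinic receptor Chrm3 had log2 fold changes of 0.20 and -0.12.

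The genes that make, carry and degrade the ligands were present at 6 of 15, with log2 fold changes from -0.07 to 0.16. Tyrosine hydroxylase (Th), the first enzyme of catecholamine synthesis, had 46, 13 and 46 counts in control and 30, 41 and 54 counts in CKO replicates 1, 2 and 3, with overlapping groups. Maoa, which breaks down amines, and the monoamine transporter Slc29a4 were among the highest of the list per kilobase, and Maoa had 47.4 ± 5.01 CPM in control against 45.2 ± 3.68 CPM in CKO lenses.

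All 5 genes for Gi, Go and Gz alpha subunits, the partners of the alpha-2 receptors, were in the table and had positive log2 fold changes from 0.05 to 0.31, none with an unadjusted p under 0.05. Gnai2 was at 324 ± 25.8 CPM in control and 336 ± 15.8 CPM in CKO lenses, and Gnai3 at 255 ± 11.6 and 267 ± 9.72 CPM. Gnao1 had the highest log2 fold change of the class, 0.31 (SE 0.152, unadjusted p = 0.0811). The alpha subunits of other classes were present at 6 of 8, with Gnas, the stimulatory subunit, at 927 ± 105 and 933 ± 44.4 CPM. Gna11, which activates phospholipase C, had 77.7, 80.8 and 77.3 CPM in control and 87.5, 88.9 and 93.3 CPM in CKO pools. Its groups did not overlap, and its log2 fold change was 0.19 (SE 0.0662, unadjusted p = 0.0224, adjusted p = 1).

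Of the beta and gamma subunits 15 were tested, with a median log2 fold change of 0.10, and the leading genes per kilobase, Gnb1, Gnb2 and Gng10, had log2 fold changes of 0.10, 0.12 and 0.01. Gng12 had 44.7, 45.9 and 43.5 CPM in control and 53.0, 58.6 and 50.9 CPM in CKO pools, without overlap. Its log2 fold change was 0.28 (SE 0.084, unadjusted p = 0.0135, adjusted p = 0.989). RGS proteins, which shorten G protein signals, were tested at 14 of 19 with a median of 0.01. Rgs8, Rgs16 and Rgs5 led per kilobase, with log2 fold changes of -0.22, 0.07 and -0.57. Rgs3 had 35.5, 36.9 and 36.1 CPM in control and 28.3, 31.2 and 31.6 CPM in CKO pools. It was lower in each CKO pool, by a log2 fold change of -0.25 (SE 0.0835, unadjusted p = 0.0201, adjusted p = 1).

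The kinases and arrestins that switch receptors off were present at 6 of 8, with log2 fold changes from -0.16 to 0.16. Grk6, Adrbk1 (the beta-adrenergic receptor kinase Grk2) and Arrb2 led per kilobase, and Adrbk1 was at 74.4 ± 1.85 CPM in control and 73.5 ± 1.96 CPM in CKO lenses. Of the adenylyl cyclases, some forms of which Gi holds back, 8 of 10 were tested with a median of 0.01. Adcy6, the highest per kilobase, had a log2 fold change of 0.12, and Adcy9 and Adcy1 had -0.47 and 0.11. Adcy3 had 10.1, 10.2 and 9.61 CPM in control and 12.4, 16 and 12.7 CPM in CKO pools. It was higher in each CKO pool, by a log2 fold change of 0.46 (SE 0.151, unadjusted p = 0.0186, adjusted p = 1).

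Among 12 phosphodiesterases, which break cyclic AMP down, the median log2 fold change was 0.02, and Pde2a alone stood apart at -1.72 (SE 0.333, unadjusted p = 0.00161, adjusted p = 0.517). Pde2a, an enzyme that cyclic GMP stimulates, had 56.5, 116 and 52.2 CPM in control and 23.6, 26.0 and 18.6 CPM in CKO pools. Control replicate 2 was highest, as for Adra2c, and the groups did not overlap. Pde2a is also among the genes that the study lists from these same libraries, so its place here is not independent. Pde7a and Pde1b, the highest of the list per kilobase, had log2 fold changes of 0.08 and 0.07. All 11 genes for subunits of protein kinase A, Epac proteins and CREB factors were tested, and ran from -0.30 to 0.22 with Prkar1a, the highest, at 0.04 and Prkaca and Prkar2a at 0.08 and 0.15.

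Channels gated by Gi proteins were present at 4 of 6. Kcnj6, a subunit of the inwardly rectifying potassium channels that beta-gamma subunits open, had 37, 86 and 30 counts in control and 10, 7 and 1 counts in CKO replicates 1, 2 and 3. Every CKO pool was below every control pool, and control replicate 2 was again the highest. In CPM this was 3.36 ± 2.36 and 0.352 ± 0.298, with a log2 fold change of -3.27 (SE 0.803, unadjusted p = 0.00525, adjusted p = 0.747). It was -2.53 without control replicate 2 and -3.98 without CKO replicate 1. Since Kcnj6 met the filter of 10 counts in 3 libraries only through its control pools, its separation and call are no independent result. With a filter of 50 counts in 3 libraries it was not tested. Kcnj3, Cacna1b and Cacna1a, the other channel genes, had log2 fold changes of 0.26, 0.13 and 0.00.

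The level of Adra2c was set beside that of fibre genes in each pool, since most of these also had lower values in CKO lenses. Over 18 lens fibre genes the mean log2 CPM was 7.37, 8.42 and 6.97 in control and 6.68, 6.33 and 6.27 in CKO replicates 1, 2 and 3. Over 16 crystallin genes it was 10.89, 11.95 and 10.32 in control and 10.23, 9.94 and 9.59 in CKO pools. The 3 control pools kept the same order in Adra2c and in both lists, with replicate 2 highest, followed by 1 and 3, while in the CKO pools Adra2c was highest in replicate 3, where both lists were lowest. In control replicate 2 Adra2c was 1.38 above the mean of the other controls on the log2 scale, within the range of the fibre genes. Of these Hopx, the lowest, was 0.997, Bfsp2 1.13 and Birc7, the highest, 1.59 above.

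**Figure D3:**
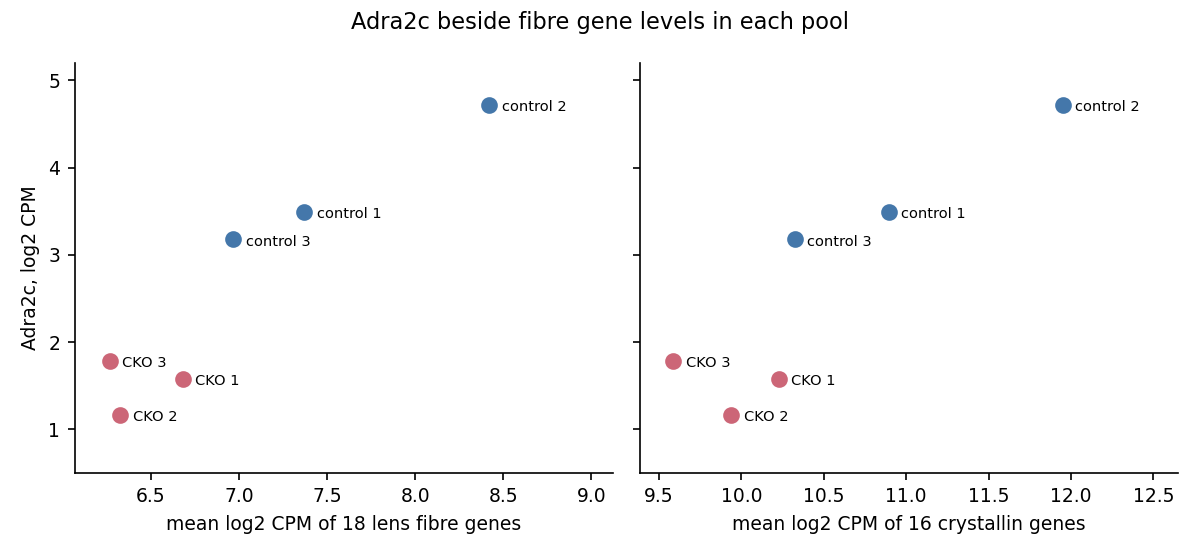
Log2 CPM of Adra2c (vertical axis) against the mean log2 CPM of 18 lens fibre genes (left) and of 16 crystallin genes (right), 1 point per pool, blue for control and red for CKO. All CKO points lie lower on the vertical axis than all control points, which follows from how Adra2c was chosen. Control replicate 3 is at 3.18 with a fibre mean of 6.97, and CKO replicate 1 at 1.57 with a fibre mean of 6.68. The fibre mean averages genes whose log2 fold changes ran from -4.64 to 0.30.

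Adra2c minus the fibre mean was -3.88, -3.70 and -3.79 in the control pools and -5.11, -5.16 and -4.49 in the CKO pools. Relative to these genes the control pools thus lay close together, at -3.79 ± 0.0871, and above all CKO pools, at -4.92 ± 0.375 (SD, n = 3). The difference of the means was -1.13 on the log2 scale, a ratio of 2.19, beside -2.29 and a ratio of 4.89 for the log2 CPM of Adra2c itself. Against the crystallin mean the difference was -1.15, and against the 13 fibre genes that the study does not list as changed it was -1.72, a ratio of 3.30. With the fibre mean as a covariate the fitted log2 fold change of Adra2c was -1.10, and with the crystallin mean it was -1.33. In pooled lenses fewer fibre cells and less RNA per cell cannot be told apart.

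**Figure D4:**
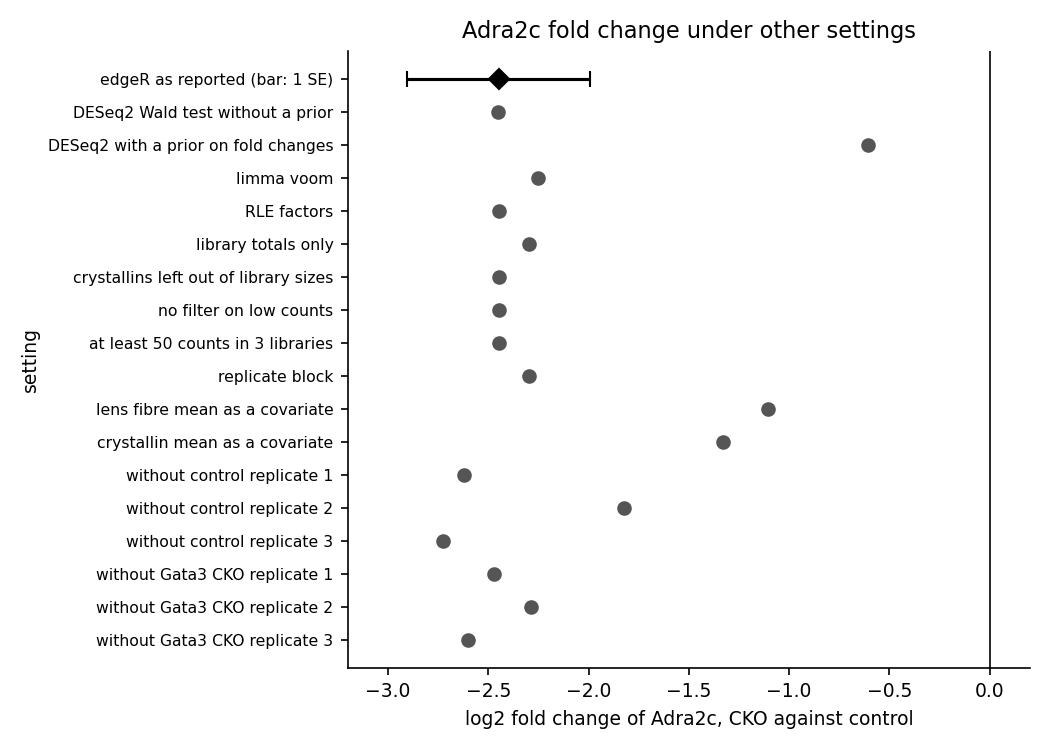
Log2 fold change of Adra2c, CKO against control, as reported (black diamond, bar of 1 standard error) and under each other setting (grey points). All values are negative, from -2.73 without control replicate 3 to -0.61 with a prior on fold changes in DESeq2, and the fits with the fibre or crystallin mean as a covariate lie at -1.10 and -1.33.

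The difference that was left depended on the fibre gene chosen. The fibre list had a median log2 fold change of -0.81, with 17 of 18 genes lower, from Dnase2b, a nuclease that degrades fibre cell DNA, at -4.64 to the transcription factor Pitx3 at 0.30. Of its genes 8 had an unadjusted p under 0.05, all lower, beside 2.24% of all genes, and 5 of the 18 genes are in the study's own list, so that the count is not independent evidence. Without control replicate 2 the median was -0.28. The crystallins ran from -3.63 (Crygf) to 0.14 (Cryab) with a median of -1.19 and 15 of 16 lower, 10 of them with an unadjusted p under 0.05, and 3 of the 16 are in the study's list. Per 1000 counts of Bfsp1, which encodes the beaded filament protein filensin, Adra2c had 15.7, 13.5 and 14.1 counts in control and 14.6, 13.2 and 24.7 counts in CKO replicates 1, 2 and 3. Set against this gene the groups overlapped. Bfsp1 is 1 of the 10 genes closest to Adra2c in profile over these same pools, so a steady ratio follows from that likeness. Per 10000 counts of Bfsp2, its partner phakinin in the same filament, Adra2c had 211, 273 and 247 counts in control and 124, 107 and 176 counts in CKO pools, and all CKO pools were below the controls. The 2 ratios therefore differed, since Bfsp1 itself had a log2 fold change of -2.72 and Bfsp2 of -1.55. Bfsp2 was picked after its values were seen, and neither ratio is a finding.

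Of 8 lens epithelium genes 7 were lower and 1 (Epha2) higher in CKO lenses, from -0.48 (Foxe3) to 0.19 on the log2 scale, with a median of -0.14 and none with an unadjusted p under 0.05. Their mean log2 CPM was 7.23, 7.81 and 6.88 in control and 7.26, 7.27 and 7.13 in CKO pools. The groups overlapped in this mean, and control replicate 2 was again the highest pool. Pax6 alone of the 8 was lowest of the controls there, with 647, 598 and 662 CPM in control replicates 1, 2 and 3.

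Genes were ranked by how closely their profile over the 6 pools followed that of Adra2c, as the root mean square difference of log2 CPM after each gene was centred on its own mean. Over 12878 genes the median of this difference was 1.26, and the 10 closest lay between 0.269 and 0.394, with the next at 0.409. They were Stx11, a syntaxin of membrane fusion (0.269), the cation channel Trpc6 (0.292), Pla2g7, which degrades platelet-activating factor (0.292), Bfsp1 (0.311) and Pgam2, a phosphoglycerate mutase known from muscle (0.315). The zinc finger factor Zbtb7b (0.319), the sodium channel Scn11a (0.342), Gm833 (0.374), Fam46b (0.378) and Lenep (0.394) followed. Bfsp1 and Lenep are members of the fibre list, the only 2 of the 10 in the fibre and crystallin lists. Adra2a ranked 10451, with a difference of 1.36.

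**Figure D5:**
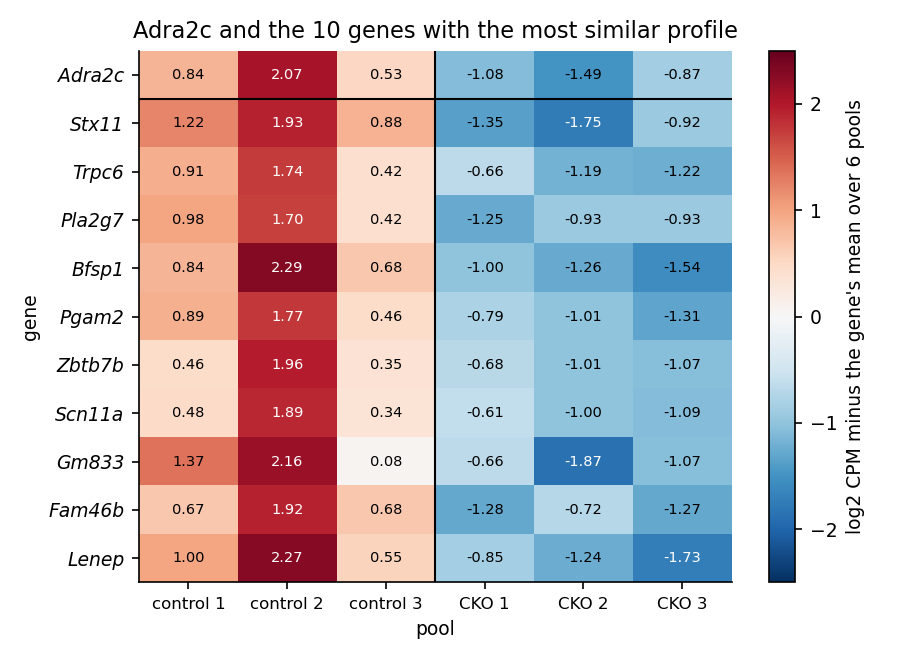
Log2 CPM of Adra2c and the 10 genes closest to it in each pool, minus the gene's mean over the 6 pools, with red above and blue below that mean. All 11 genes are highest in control replicate 2 and below their mean in the 3 CKO pools.

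Stx11 had 145, 213 and 129 counts in control and 23, 22 and 39 counts in CKO replicates 1, 2 and 3. Like Adra2c it was highest among the CKO pools in replicate 3, and its mean was 10.5 ± 4.06 CPM in control and 1.55 ± 0.458 CPM in CKO lenses. Bfsp1 was far more abundant, with 1099 ± 734 CPM in control and 167 ± 31.3 CPM in CKO lenses. The 10 genes were selected for this likeness in the same pools, so their fold changes, from -2.75 (Stx11) to -1.99 (Scn11a), follow from the selection and are no finding. Stx11, Trpc6, Pla2g7, Pgam2, Fam46b and Lenep are also among the genes that the study lists from these libraries.

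None of the tested genes next to Adra2c on chromosome 5 had groups that separated. The nearest tested genes before it are Lrpap1 (173 kb), Rgs12 (239 kb) and Htt (366 kb), with log2 fold changes of -0.15, 0.12 and -0.12. Those after it are Hmx1, a homeobox factor, at 107 kb with 0.00, the carboxypeptidase Cpz at 220 kb with -0.50 and Trmt44 at 274 kb with 0.07. None had an unadjusted p under 0.05 (edgeR), and the lowest of the 6 was 0.185. Cpz ran from -0.80 without CKO replicate 2 to -0.27 without CKO replicate 3. Without control replicate 3 the unadjusted p was 0.0426 for Cpz and 0.0377 for Lrpap1, and with the replicate number as a block it was 0.0200 for Cpz, none of them below 0.05 after adjustment.

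Markers of other cell types were measured beside Adra2c, since each pool was dissected tissue. The 9 mesenchyme genes in the table summed to 2089, 456 and 239 CPM in control and 232, 3769 and 468 CPM in CKO replicates 1, 2 and 3. Control replicate 1 and CKO replicate 2 were high in these, and Adra2c was lowest in CKO replicate 2. The 12 retina genes summed to 1194 to 2407 CPM in control and 1638 to 2304 CPM in CKO pools, and the 10 neuron genes to 751 to 2482 and 1551 to 2138 CPM. Both were lowest in control replicate 2, where Adra2c was highest. The 6 pigment cell genes, with sums of 341, 98.6 and 69.8 CPM in control and 86.4, 341 and 72.6 CPM in CKO pools, were high in the same pools as the mesenchyme genes. The 6 surface ectoderm genes summed to 37.1 to 83.1 CPM in control and 45.3 to 117 CPM in CKO pools. The part of these tissues in the level of Adra2c, by dilution or otherwise, was not tested.

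Blood, vessel and macrophage genes had negative medians, as did Adra2c. Of the 7 blood genes measured, Hba-a2, Hbb-bs and Hbb-bt were listed at 0 in every pool, and the list summed to 382 to 1383 CPM in control, highest in replicate 2, and to 306 to 452 CPM in CKO pools, with all 4 tested genes lower and a median of -0.87. The 6 vessel genes summed to 246 to 312 CPM in control and 219 to 276 CPM in CKO pools, with a median of -0.36 and 5 lower. The 5 macrophage genes summed to 61.3 to 112 and 56.2 to 75.1 CPM, with a median of -0.27 and all 5 lower. No gene of these 3 lists had an unadjusted p under 0.05, the groups overlapped in each summed level, and their part in the level of Adra2c was not tested.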

How the data were processed

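Strand-specific polyA RNA-Seq libraries of 6 lens pools were sequenced as paired ends. Per the study's methods and the submitters' processing notes, the authors trimmed reads with Trim Galore, aligned them to mm10 with TopHat2 2.0.13, counted fragments per gene with HTSeq 0.6.1 and deposited the raw count of each gene with a group mean above 1 FPKM. HTSeq's settings for strand and overlaps are not given in the sources used here. Titles number the CKO samples 1, 2 and 3 where descriptions say 2, 3 and 4, and the title numbers are used.

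Counts were normalized by TMM and fitted in edgeR 4.0.16 (R 4.3.3; robust quasi-likelihood fit, glmQLFTest, Benjamini-Hochberg at 0.05) where 3 or more libraries held 10 or more counts of a gene. Log2 CPM used a prior count of 1. Totals of 15157230 to 18811104 counts give the intervals in the text, which cover counting error only. Nothing says whether pools were separate litters, so p-values measure the spread between these pools. DESeq2 1.42.0 and limma 3.58.1 (voom), other normalizations and filters, covariates, the replicate block and leaving out each library were the alternatives. The edgeR step was run on simulated counts, drawn independently with the fitted dispersions and without tissue differences between pools. That run checks the code and does not measure how the test performs on these pools. Positions, exon lengths (12940 of 13024 genes, 99.4%) and transcripts came from GENCODE M21 (GRCm38, the assembly of mm10), and promoters from RefSeq for the same assembly. Python 3.11.15 was used for tables and plots.

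Adra2c, the lists and the tests were chosen with earlier results of these data known. Named genes are Gata3, adrenergic receptors, signalling genes with an unadjusted p under 0.05 or among the 3 highest of their list per kilobase (1 of these is not reported here), the 10 genes most like Adra2c, 3 tested neighbours on each side, and extremes of the fibre and crystallin lists. Th, Bfsp2, Hopx, Birc7, Epha2, Foxe3, Pax6 and the blood genes listed at 0 are outside this rule and were picked after their values were seen.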

Additional observations from a re-analysis of the deposited data

How the results depend on the processing

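The log2 fold change of Adra2c was negative under every alternative run. It was -2.73 to -1.83 when each library was left out (-1.83 without control replicate 2), -0.61 in DESeq2 with a prior on fold changes, -1.10 with the fibre mean and -1.33 with the crystallin mean as a covariate. Adra2c minus the fibre mean was -1.72 without the genes the study lists and -1.81 against the median of the fibre list, and -1.35 to -1.01 when each library was left out. Genes called after adjustment numbered 85 in DESeq2, 1 with library totals only, and 0 to 1 when each library was left out (1 without control replicate 3). Signalling genes with an unadjusted p under 0.05 numbered 4 to 15 when each library was left out, with 15 without control replicate 3. The fibre median was -1.08 to -0.28 there, -0.28 without control replicate 2. Among single genes Hmx1 (-0.0925 to 0.137) and Rgs12 (-0.0447 to 0.284) changed sign when a library was left out. The causes were not tested. Replicate numbers do not pair the pools (correlations of deviations between same-numbered pools -0.49, 0.09 and 0.44, and control replicate 1 correlated best with CKO replicate 2, at 0.56). With the replicate block Adra2c was at -2.30, no gene was called and 7 signalling genes had an unadjusted p under 0.05. No alternative varied the depth, and the counts of Adra2c and Kcnj6 in CKO pools were low.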
